A study of Mus musculus with 16 samples.

Results

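Tuft cells were followed through 10 genes that mark them, *Dclk1*, *Pou2f3*, *Trpm5*, *Il25*, *Gfi1b*, *Avil*, *Sh2d6*, *Il17rb*, *Ptgs1* and *Alox5ap*, taken from a named list out of 45513 genes counted in the colonic epithelium of 8 mice. All 10 were found once in the count tables. A filter on low counts kept 15841 genes for testing, and 9 of the 10 passed it. *Il25* did not.

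Tuft cells are rare chemosensory cells scattered through the epithelium of the gut. They depend on the transcription factor Pou2f3, sense luminal metabolites through a taste-like pathway that ends in the cation channel Trpm5, and release interleukin 25 and eicosanoids that act on immune cells beneath the epithelium. Whether they arise through the secretory progenitors that express Atoh1, as goblet and enteroendocrine cells do, has been answered differently for different parts of the intestine.

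Libraries were made from sorted colonic epithelial cells, 2 per mouse: tdTom+ cells, which had expressed Atoh1 around the time of tamoxifen or descend from such cells, and tdTom- cells, the remaining EpCAM+ fraction. All 8 mice were homozygous for Atoh1(WT)CreERT2, in which the recombinase follows the intact *Atoh1* coding sequence, and carried 1 Rosa26tdTom allele on a C57BL/6 background. Mice of both sexes, 8 to 16 weeks old, received 1 mg tamoxifen a day for 3 days, so both populations shared genotype and treatment, and no uninduced animals entered the comparison. The reporter marks cells by the history of the *Atoh1* locus and not by their present type, and a tdTom- cell may be one in which recombination failed. By staining, the paper reports no tdTom in Dclk1+ tuft cells a day after a single pulse of tamoxifen. That was a shorter induction than the 3 days used here, and a readout of single cells. The legend of that staining names no part of the intestine, and the paper describes results in the colon as similar.

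The libraries held 16482530 to 24218367 counts each in 15 of 16 cases, whereas the tdTom- library of mouse 4 held 45791503. That library also had the lowest level of 8 of the 9 tested tuft genes among tdTom- samples, so the changes of the tested members are given below with and without mouse 4. *Atoh1* separated the populations as labeled, with 102.5 to 166.0 counts per 1000000 (CPM) when labeled tdTom+ and 3.18 to 8.89 CPM when labeled tdTom-. Levels are CPM scaled by the trimmed mean of M values (TMM), and changes are log2 fold changes of tdTom+ over tdTom- from edgeR's quasi-likelihood test, called at a Benjamini-Hochberg adjusted p under 0.01 over all genes tested. Because each library is a bulk population, fewer tuft cells and less RNA per tuft cell cannot be told apart.

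Tuft cell transcripts were lower in tdTom+ cells but far from lost. Of the 9 tested genes, 7 fell, 0 rose and 2 did not pass the test, *Avil* and *Pou2f3*. Among all genes tested, 25.5% fell and 25.5% rose, so a call in this comparison was common. The median log2 fold change of the 9 genes was -0.93, against 0.00 for all genes tested (15841). The fits ran from *Il17rb*, at 38.9% of its tdTom- level, to *Pou2f3*, at 103.6%. Fitting each mouse as a block, 8 of the 9 fell and 0 rose, beside 28.9% of all genes lower and 28.4% higher. Without mouse 4 the log2 fold changes were -1.358 for *Gfi1b*, -1.214 for *Sh2d6*, -1.463 for *Il17rb*, -1.103 for *Ptgs1* and -0.865 for *Alox5ap*. Each of these was a larger fall than with all mice.

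**Figure D1:**
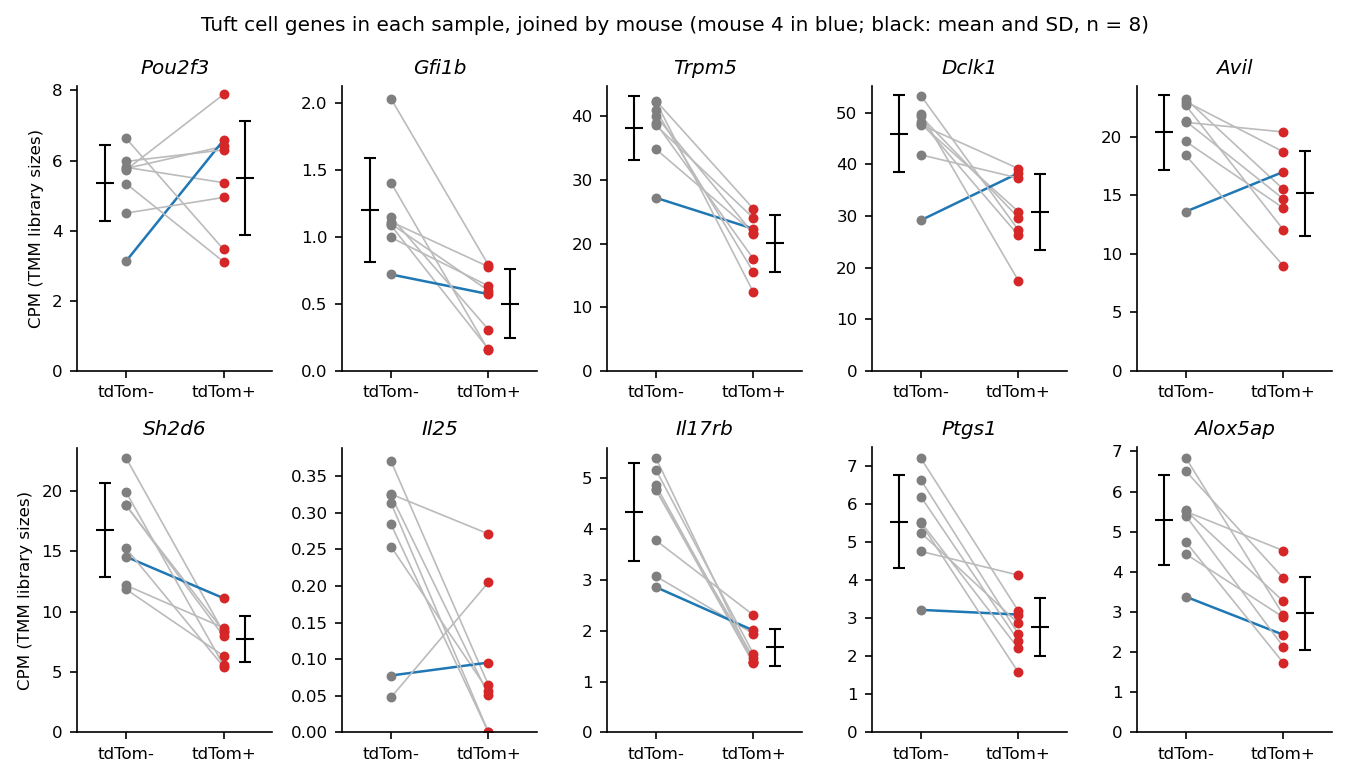
CPM (TMM library sizes, linear axes from 0) of the 10 tuft cell genes in tdTom- (gray) and tdTom+ (red) samples, with lines joining the samples of a mouse, mouse 4 in blue, and black bars for the mean and SD (n = 8) except for *Il25*, which had 0 to 7 counts per sample. *Trpm5*, *Sh2d6* and *Il17rb* show no overlap between the groups, and *Pou2f3* lines run in both directions.

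Upstream sequences of the members were searched for the octamer ATGCAAAT, the motif bound by POU2F factors, its shorter core ATGCAAA (contained in the octamer), the GFI core AAATCAC and the E-box CAGCTG, on both strands. RefSeq promoters (GRCm38.p6, 250 bases before to 50 after the start) were held for 7 of the 10 genes, 8 promoters in all, since *Dclk1* has 2. The full octamer was in 0 of the 8 and in 1.74% of 32851 promoters, the core in 1 of 8 and 4.63%, the GFI core in 0 of 8 and 3.2%, and the E-box in 0 of 8 and 16.3%. The core occurred 2 times before *Avil*, with first bases at -115 and -15 from the start. The 250 bases upstream of the *Avil* start (chr10:127000459-127000708, + strand) are shown for these matches, in capitals on either strand, beside those of *Trpm5* (chr7:143094643-143094892, - strand) and *Il17rb* (chr14:30008897-30009146, - strand), the channel and the receptor whose groups did not overlap, with no match in their windows.
Avil: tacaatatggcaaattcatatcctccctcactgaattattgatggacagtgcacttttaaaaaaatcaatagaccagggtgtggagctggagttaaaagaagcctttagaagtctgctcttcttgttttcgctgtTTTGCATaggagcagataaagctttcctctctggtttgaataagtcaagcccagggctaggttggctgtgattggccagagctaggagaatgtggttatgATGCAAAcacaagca
Trpm5: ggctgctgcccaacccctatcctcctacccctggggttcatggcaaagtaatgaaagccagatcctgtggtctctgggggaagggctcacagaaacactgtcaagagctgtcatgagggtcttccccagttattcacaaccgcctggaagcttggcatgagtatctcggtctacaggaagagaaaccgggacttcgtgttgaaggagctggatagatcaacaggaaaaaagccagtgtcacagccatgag
Il17rb: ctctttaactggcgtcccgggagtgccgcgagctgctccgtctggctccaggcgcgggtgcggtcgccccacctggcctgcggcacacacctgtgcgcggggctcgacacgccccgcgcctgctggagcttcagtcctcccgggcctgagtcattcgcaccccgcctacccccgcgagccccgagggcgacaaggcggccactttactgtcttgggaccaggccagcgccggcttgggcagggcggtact

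Both transcription factors on the list were tested. *Pou2f3* (chromosome 9, 43123939 to 43210369, - strand), the POU-domain factor that tuft cells require, had 3.13, 5.75 and 6.64 CPM as lowest, median and highest tdTom- values, and 3.12, 5.84 and 7.89 CPM in tdTom+ cells. The groups overlapped over nearly their whole range, and tdTom+ was the higher sample in 5 of 8 mice. Its log2 fold change was 0.05 ± 0.18 (SE, n = 8 per group, adjusted p = 0.8206), with a 95% interval from 79.4% to 135.1% of the tdTom- level. Without mouse 4 it was -0.069, and within mice 5 to 8 it was -0.32 (adjusted p = 0.2142), so its direction was not settled.

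*Gfi1b* (chromosome 2, 28609450 to 28621982, - strand) encodes a zinc-finger repressor also known from megakaryocytes and red cell precursors. It had 0.719, 1.11 and 2.03 CPM as lowest, median and highest tdTom- values, and 0.153, 0.585 and 0.789 CPM in tdTom+ cells. Only the tdTom- sample of mouse 4 fell among the tdTom+ values, and tdTom+ was lower in 8 of 8 mice. It fell by 1.24 ± 0.29 on the log2 scale (SE, n = 8 per group, edgeR adjusted p = 0.001). The tdTom+ libraries held 3 to 16 counts of it each, so single-mouse ratios ran widely, from 10.9% to 79.6%.

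*Trpm5* (chromosome 7, 143069153 to 143094642, - strand) carries the current at the end of the taste-like cascade. It had 27.2, 39.5 and 42.5 CPM as lowest, median and highest tdTom- values, and 12.4, 21.7 and 25.5 CPM in tdTom+ cells. The groups did not overlap, also for *Sh2d6* and *Il17rb*; of all genes tested, 15.3% had every tdTom+ sample under every tdTom- sample. *Trpm5* fell by 0.93 ± 0.13 on the log2 scale (SE, n = 8 per group, edgeR adjusted p = 1.81e-06), to 52.6% of the tdTom- level, and was lower in 8 of 8 mice.

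*Dclk1* (chromosome 3, 55242364 to 55539068, + strand), a microtubule-associated kinase and the usual antibody marker of tuft cells, was the most counted of the 10, with 12812 counts in all samples. Its lowest, median and highest tdTom- values were 29.2, 48.1 and 53.3 CPM, and its tdTom+ values 17.5, 30.3 and 39.2 CPM. The overlap came from mouse 4, whose tdTom- sample was the lowest of its group and whose ratio was reversed, with 38.3 CPM in tdTom+ cells. Across mice *Dclk1* fell by 0.57 ± 0.14 on the log2 scale (SE, n = 8 per group, edgeR adjusted p = 0.0014), and by 0.68 ± 0.12 without mouse 4.

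*Avil* (chromosome 10, 127000709 to 127020994, + strand) encodes advillin, an actin-bundling protein of the tuft cell's microvilli. It had 13.6, 21.3 and 23.2 CPM as lowest, median and highest tdTom- values, and 8.99, 15.1 and 20.4 CPM in tdTom+ cells. The groups overlapped, and tdTom+ was lower in 7 of 8 mice, mouse 4 again being the other. The log2 fold change of -0.42 ± 0.14 missed the threshold (SE, n = 8 per group, edgeR adjusted p = 0.0122), and passed it once mice were fitted as blocks (-0.43 ± 0.11, adjusted p = 0.0031) and without mouse 4 (-0.50 ± 0.13, adjusted p = 0.003).

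*Sh2d6* (chromosome 6, 72513644 to 72521634, - strand) encodes an SH2-domain adaptor. It had 11.9, 17.0 and 22.7 CPM as lowest, median and highest tdTom- values, and 5.44, 8.13 and 11.1 CPM in tdTom+ cells. It fell by 1.11 ± 0.16 on the log2 scale (SE, n = 8 per group, edgeR adjusted p = 2.79e-06), to 46.3%, and was lower in 8 of 8 mice.

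The cytokine *Il25* (chromosome 14, 54932695 to 54935837, + strand), which tuft cells use to activate type 2 innate lymphoid cells, was close to the limit of detection. Its counts were 1 to 7 in tdTom- samples, 41 in all, and 0 to 5 in tdTom+ samples, 14 in all, and in CPM tdTom+ was lower in 6 of 8 mice. No difference was detectable at this depth: in a fit without the filter on low counts its log2 fold change was -1.31 ± 0.56 (SE, edgeR adjusted p = 0.0676), a value that depends on the prior count of the fit. The 2 tdTom+ samples with 0 counts, of mice 7 and 8, allow levels up to 0.179 and 0.119 CPM, the value of 3 counts, counting error only.

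*Il17rb* (chromosome 14, 29996141 to 30008896, - strand), a subunit of the receptor for that cytokine, fell furthest of the 9 tested genes. It had 2.86, 4.77 and 5.40 CPM as lowest, median and highest tdTom- values, and 1.36, 1.504 and 2.31 CPM in tdTom+ cells. The groups did not overlap, and tdTom+ was lower in 8 of 8 mice. The log2 fold change was -1.36 ± 0.16 (SE, n = 8 per group, edgeR adjusted p = 3.53e-07), with a 95% interval from 30.5% to 49.6% of the tdTom- level.

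Both eicosanoid genes fell. *Ptgs1* (chromosome 2, 36230426 to 36252272, + strand), which encodes cyclooxygenase 1, had 3.23, 5.52 and 7.22 CPM as lowest, median and highest tdTom- values, and 1.58, 2.73 and 4.14 CPM in tdTom+ cells. *Ptgs1* fell by 1.00 ± 0.18 on the log2 scale (SE, n = 8 per group, edgeR adjusted p = 4.81e-05) and was lower in 8 of 8 mice, with overlap between the groups from the low tdTom- sample of mouse 4 and the high tdTom+ sample of mouse 3. *Alox5ap* (chromosome 5, 149265058 to 149288045, + strand), which encodes the protein that presents arachidonic acid to 5-lipoxygenase, had 3.38, 5.45 and 6.84 CPM in tdTom- cells and 1.74, 2.90 and 4.53 CPM in tdTom+ cells, in the same order. It fell by 0.84 ± 0.18 on the log2 scale (SE, n = 8 per group, edgeR adjusted p = 3.91e-04), also in 8 of 8 mice, with overlapping groups.

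**Figure D2:**
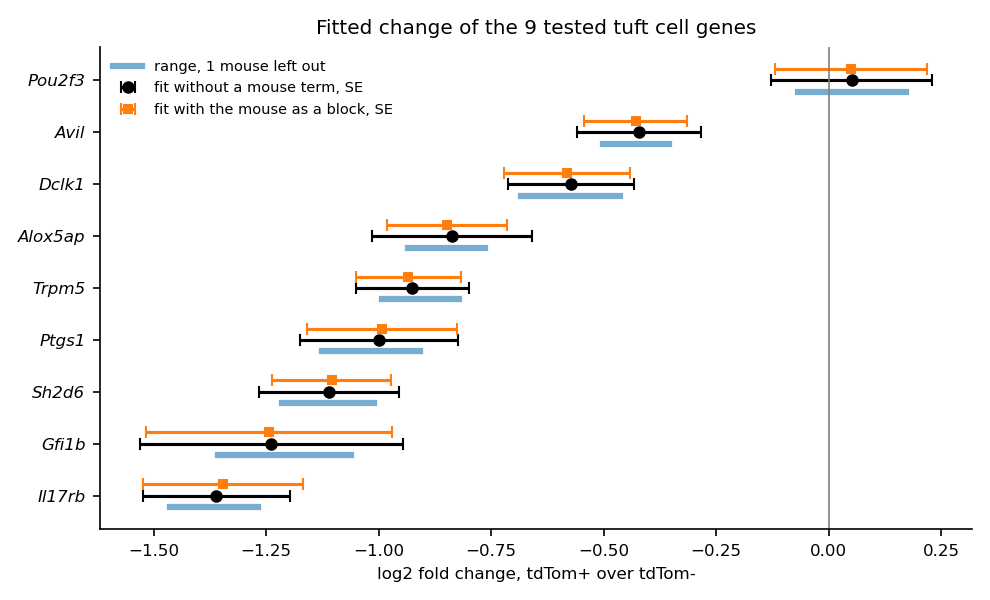
Log2 fold change of tdTom+ over tdTom- for the 9 tested genes, with the SE, from the fit without a mouse term (black circles) and with the mouse as a block (orange squares), and the range over fits that leave out 1 mouse (blue bars). The blue bar of *Pou2f3* alone crosses 0, from -0.069 to 0.172, and that of *Il17rb* runs from -1.46 to -1.27.

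The exon positions are those of the deposited counting on GRCm38. No member shared exon bases with another gene on its own strand, and *Dclk1*, *Trpm5* and *Avil* shared 114, 220 and 165 bases with genes on the opposite strand, which the stranded counting keeps apart. A single count per gene does not separate the 2 *Dclk1* starts.

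Members that follow each other in the order of log2 fold change were compared over mice by an exact sign-flip permutation test of their log2 ratios (two-sided, smallest possible p = 0.0078). Of the 8 pairs, 0 passed an adjusted p of 0.05, but 1 pair alone could reach no lower than 0.0625, so the test says little about whether neighbours differ. The order itself was taken from these same samples, so the sign of each step was favored in advance. The widest step, from *Avil* to *Pou2f3*, was 0.46 ± 0.29 (SD, n = 8 mice), with *Pou2f3* higher in 7 of 8 mice and an exact permutation p of 0.0156, 0.125 after adjustment. The step from *Dclk1* to *Avil* was 0.15 ± 0.18 (SD, n = 8 mice), with an exact permutation p of 0.0469, 0.1875 after adjustment. *Pou2f3* was then set against every other tested member, a choice made after its values were seen and therefore given without a test. Its ratio exceeded that of *Il17rb* by 1.33 ± 0.52, that of *Trpm5* by 0.96 ± 0.30 and that of *Dclk1* by 0.60 ± 0.31 (log2, SD, n = 8 mice), each in 8 of 8 mice. It exceeded that of the other transcription factor, *Gfi1b*, by 1.24 ± 0.76 (log2, SD) in 7 of 8 mice. It was the highest of the 9 ratios in every mouse except mouse 7.

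**Figure D3:**
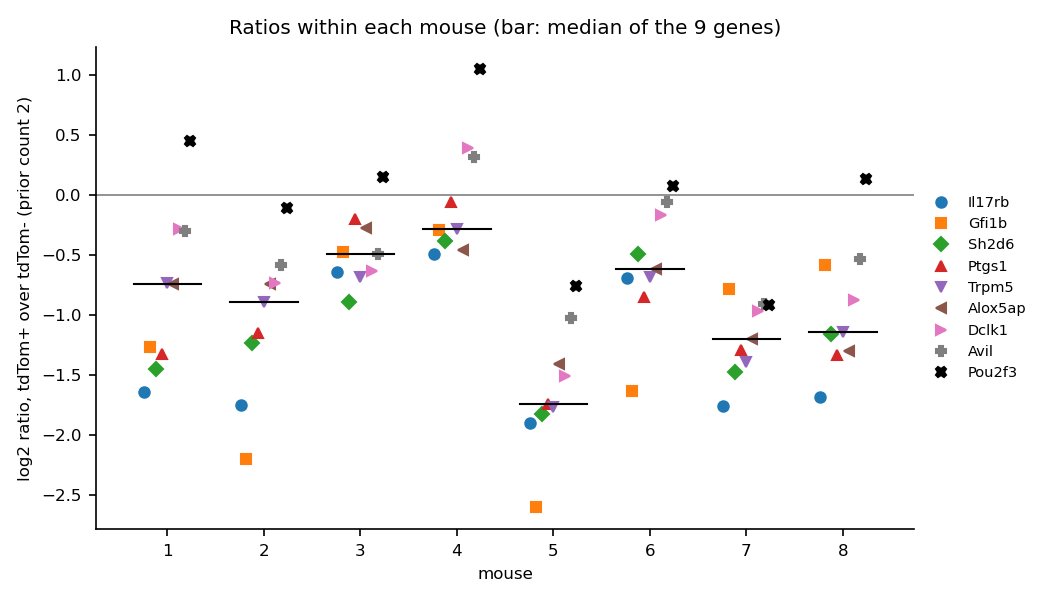
Log2 ratio of tdTom+ over tdTom- within each mouse (log2 CPM with a prior count of 2) for the 9 tested genes, with the median of the 9 as a black bar. The medians run from -1.74 in mouse 5 to -0.28 in mouse 4, and the black crosses of *Pou2f3* lie at the top in 7 of 8 mice.

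The size of the difference also varied among mice. The median log2 ratio of the 9 genes was -0.74, -0.89, -0.49 and -0.28 in mice 1 to 4, and -1.74, -0.61, -1.20 and -1.14 in mice 5 to 8. All 9 genes were lower in tdTom+ cells of mice 2, 5 and 7, and 8 of 9 in mice 1, 3, 6 and 8. In mouse 4 only 6 of 9 were lower, since *Pou2f3*, *Dclk1* and *Avil* were higher. The 2 ends of this spread came from different populations. In mouse 4 the tdTom- sample was low, with a mean of the 9 genes 0.56 below the group mean on the log2 scale, and in mouse 5 the tdTom+ sample was low, 0.68 below it.

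**Figure D4:**
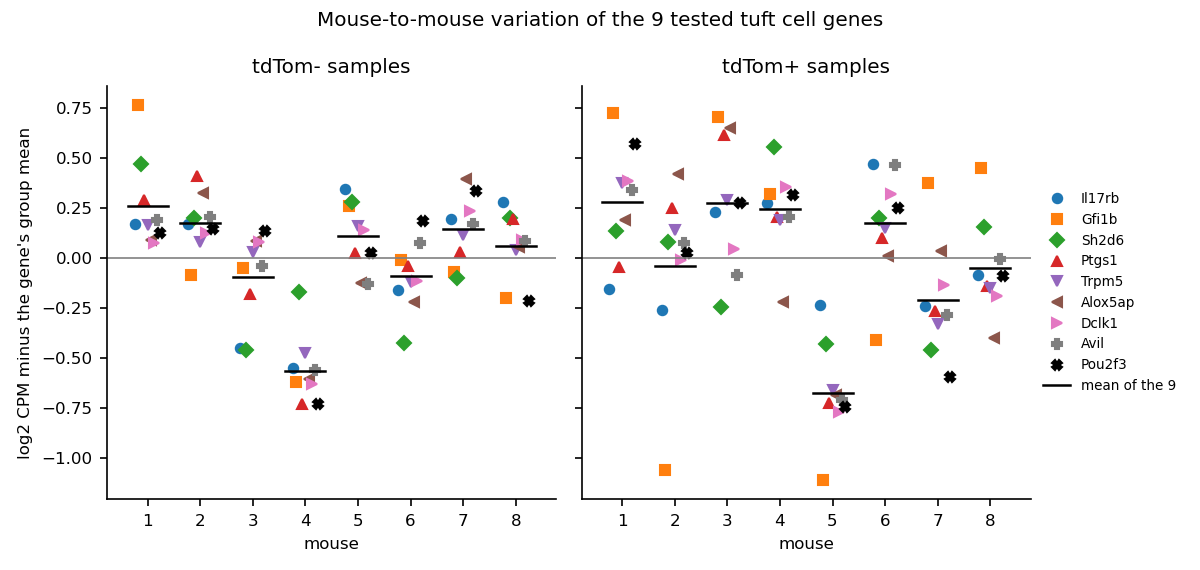
Log2 CPM of the 9 tested genes minus each gene's mean in its group, by mouse, for tdTom- samples (left) and tdTom+ samples (right), with the mean of the 9 as a black bar. In mouse 4 the tdTom- bar is at -0.56 and in mouse 5 the tdTom+ bar is at -0.68, with all 9 genes below 0 in both.

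Over the 8 tdTom- samples, each gene's Pearson r with the mean of the other 8 ran from 0.48 for *Sh2d6* to 0.95 for *Trpm5*, and Spearman's rho from 0.19 for *Gfi1b* to 0.88 for *Trpm5*. Without the 2 samples farthest from the median, r ran from 0.053 for *Pou2f3* to 0.87 for *Trpm5*. Leaving out mouse 4 alone, a choice made after seeing the data, r ran from -0.082 for *Pou2f3* to 0.79 for *Trpm5*, and it was lower than with all mice for every member except *Sh2d6* (0.78). Among 15832 other genes, the 10 that followed the members' mean most closely in tdTom- samples were *Scn3a* (Pearson r = 0.99), *Kcnh6*, *Apba1*, *Sstr5*, *Hmx2*, *Cacna1h*, *Shc2*, *Apbb1*, *Gprin1* and *Csgalnact2* (r = 0.97). Of these, *Hmx2*, a homeobox gene, was on the list of other tuft-associated genes. The log2 fold changes of the 10 went both ways, from -1.97 for *Sstr5* to 1.17 for *Kcnh6*. All 10 kept r at 0.87 or more without the 2 samples farthest from the median. That is no separate support, since the 10 were chosen as the highest r over these same samples. In all, 124 genes had r over 0.9. These values describe 8 libraries that also differ in depth.

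Per kilobase of exon, which allows genes to be compared, the order of levels was similar in both populations. In tdTom- cells the mean level ran from *Sh2d6* (9.65 CPM per kb), *Alox5ap* (6.22), *Avil* (5.998) and *Trpm5* (5.97) through *Dclk1* (3.00), *Pou2f3* (1.98), *Il17rb* (1.59) and *Ptgs1* (1.43) to *Gfi1b* (0.655) and *Il25* (0.235). Neighbours overlapped in range except *Trpm5* and *Dclk1*, and *Gfi1b* and *Il25*. In tdTom+ cells *Avil* (4.46 CPM per kb) and *Sh2d6* (4.45) were level at the top, followed by *Alox5ap* (3.49) and *Trpm5* (3.14), and *Pou2f3* (2.03) stood beside *Dclk1* (2.02). *Dclk1*, the most counted of the 10 genes, was in place 5 in tdTom- cells on this scale, which divides by the 15296 bases of all its annotated exons; the length of the transcripts in these cells is not known from gene counts.

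Of 60 further genes associated with tuft cells, 52 were tested, 26 fell and 13 rose (28 and 14 with mice fitted as blocks), beside 25.5% lower and 25.5% higher among all genes tested. The rises are thus near the share of all genes. The median log2 fold change of the 52 was -0.41. In the taste-like cascade and its receptors, 5 of 9 tested genes fell and 2 rose. *Gnat3*, the gustducin subunit, fell by 1.26 ± 0.26 on the log2 scale (SE), *Ffar3*, a receptor for short-chain fatty acids, fell by 1.97 ± 0.22, and *Chat*, which makes acetylcholine, fell by 1.24 ± 0.27 (edgeR adjusted p = 2.58e-04, 1.50e-07 and 5.72e-04). The phospholipase *Plcb2* rose by 0.65 ± 0.15 and the regulator of G-protein signaling *Rgs2* by 3.03 ± 0.16, and *Tas1r3*, a taste receptor subunit, had a log2 fold change of 0.03 (edgeR adjusted p = 6.86e-04, 1.67e-12 and 0.9131).

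Of 6 tested eicosanoid genes 2 fell and 3 rose, beside 25.5% lower and 25.5% higher among all genes tested, and no set test was run. *Alox5*, the lipoxygenase that works with *Alox5ap*, fell by 0.80 ± 0.14 on the log2 scale (SE), and *Hpgds*, the hematopoietic prostaglandin D synthase, fell by 1.22 ± 0.12 (edgeR adjusted p = 6.00e-05 and 2.62e-08). *Ltc4s*, the leukotriene C4 synthase, was at -0.48 ± 0.15 (SE, edgeR adjusted p = 0.0111). The prostaglandin E synthase *Ptges* rose by 1.76 ± 0.19 and the phospholipases *Pla2g4a* and *Pla2g16* by 0.62 ± 0.07 and 1.84 ± 0.10 (edgeR adjusted p = 7.78e-08, 4.39e-08 and 3.09e-12). Their tdTom- means, 65.9 CPM for *Pla2g4a* and 36.9 CPM for *Pla2g16*, lay above those of *Alox5* (9.45 CPM) and *Hpgds* (12.6 CPM).

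Of 24 tested signaling and cytoskeletal genes, 14 fell and 4 rose (16 and 5 with mice fitted as blocks), with a median log2 fold change of -0.47. Beside this list and the next 2, 25.5% of all genes tested fell and 25.5% rose (28.9% and 28.4% with mice fitted as blocks). The lowest were *Rac2* (-2.25 ± 0.14, SE), a small GTPase, *Siglecf* (-2.20 ± 0.17), a sialic acid receptor, and *Matk* (-2.19 ± 0.18), a kinase that restrains Src kinases. The highest were the calcium pump *Atp2a3* (1.87 ± 0.08), *Cd24a* (1.85 ± 0.10) and *Lrmp* (1.12 ± 0.11). *Atp2a3* and *Cd24a* reached means of 2457 and 1111 CPM in tdTom+ cells, levels that no member approached in either population. Among 7 tested transcription factors, 2 fell, *Ascl2* (-0.79 ± 0.20) and *Spib* (-0.70 ± 0.17), and 2 rose, *Sox9* (0.62 ± 0.09) and *Runx1* (0.51 ± 0.07). Both counts are near the shares of all genes. *Hmx2* (-0.58 ± 0.22) and 1810046K07Rik (-0.32 ± 0.21) did not pass. Of 6 cytokine receptor and signaling genes, *Crlf2* (-0.82 ± 0.15), *Stat6* (-0.42 ± 0.05) and *Il17ra* (-0.39 ± 0.07) fell. *Il13ra1* (1.64 ± 0.07) and *Il4ra* (0.96 ± 0.08), which form the receptor for the cytokines that expand tuft cells, rose, and *Il10rb* (-0.10 ± 0.06) did not pass.

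**Figure D5:**
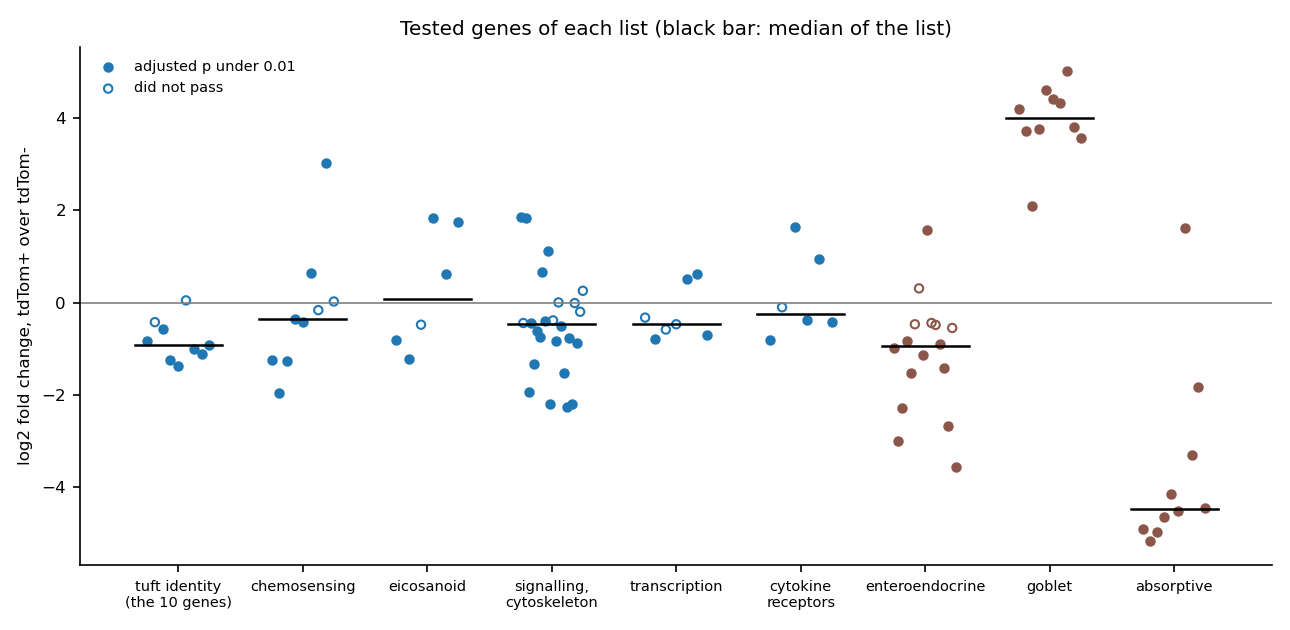
Log2 fold change of tdTom+ over tdTom- for each tested gene of 9 lists, filled where the adjusted p was under 0.01, with the median of the list as a black bar; tuft-associated lists are blue, lists of other epithelial types brown. The tuft identity genes lie between -1.36 and 0.05, whereas goblet genes lie between 2.09 and 5.03 and all absorptive genes except *Guca2b* at -1.82 or lower.

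Other epithelial lineages marked out the scale on which the tuft genes changed. Beside the counts of these lists, 25.5% of all genes tested fell and 25.5% rose (28.9% and 28.4% with mice fitted as blocks). All 10 goblet genes rose, with a median log2 fold change of 4.01, and *Muc2* reached 13680 CPM. Of 10 absorptive genes 9 fell, with a median of -4.48, as *Aqp8* (-5.18 ± 0.19, SE) and *Car4* (-4.98 ± 0.17) did. Of 16 enteroendocrine genes 10 fell (11 with mice fitted as blocks) and 1, the progenitor factor *Neurog3* (1.58 ± 0.36), rose, with a median of -0.94 against -0.93 for the tuft identity genes. The enteroendocrine genes ranged more widely, from *Tph1* (-3.56 ± 0.24) upward, than the tuft identity genes. The 6 general epithelial genes also all fell, with a median of -0.63, from *Krt8* (-1.08 ± 0.08) to *Epcam* (-0.20 ± 0.06).

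Blood cell markers were checked because *Ptgs1*, *Alox5ap* and *Gfi1b* are also expressed in leukocytes or platelets. *Ptprc* (CD45), *Rac2* and *Siglecf*, counted above with the tuft signaling genes, are leukocyte genes as well. *Ptprc* fell by 1.52 ± 0.21 on the log2 scale (SE, edgeR adjusted p = 2.28e-06). Its mean was 6.23 CPM for tdTom- and 2.17 CPM for tdTom+ cells, and tdTom+ was lower in 8 of 8 mice. Of 16 leukocyte genes 12 were too low to test, with at most 37 counts of any of them in a sample. *Cd3e*, *Cpa3* and *S100a8* had 26, 1 and 5 counts over all 16 samples. The summed level of the 16 ran from 72.4 to 131.0 CPM for tdTom- and from 292.6 to 404.4 CPM for tdTom+ cells, most of it from *Kit* (log2 fold change 3.33 ± 0.10, SE) and *Ly6g* (-4.91 ± 0.16). *Kit* averaged 32.0 CPM for tdTom- and 321.9 CPM for tdTom+ cells, and *Ly6g* 60.1 and 2.03 CPM. The sum thus follows these 2 genes and does not measure leukocyte content, and which cells gave their transcripts was not tested. *Cd68* fell by 0.81 ± 0.20 and *Itgam* stood at -0.10 ± 0.15. Of 7 platelet genes only *Itga2b* was tested (-2.37 ± 0.36, SE), *Gp1ba* was at 0 in all 16 samples, and the sum ran from 1.00 to 2.79 CPM for tdTom- and from 0.573 to 1.64 CPM for tdTom+ cells. Of 8 stromal genes 3 were tested, *Pecam1* (-1.58 ± 0.14, SE), *Acta2* (-0.41 ± 0.11) and *Vim* (-0.51 ± 0.22, not passing), and the sum ran from 11.9 to 24.4 CPM and from 7.47 to 15.5 CPM. The untested blood genes with the most counts went in different directions: the macrophage gene *Csf1r* averaged 0.591 CPM for tdTom- and only 0.0585 CPM for tdTom+ cells, whereas the mast cell tryptase *Tpsb2* had 0.119 and 0.763 CPM and the platelet factor *Pf4* 0.325 and 0.765 CPM, both higher in tdTom+ cells of 8 of 8 mice. The part of these cells in the lower tuft gene levels was not tested. The same holds for the share of goblet transcripts, since the 10 goblet genes summed to 52230 to 109600 CPM in the tdTom+ libraries but to 2512 to 9119 CPM in the tdTom- libraries.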

How the data were processed

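The deposited files hold whole-number counts per gene, which the authors made without normalization from 50-base single-end reads of stranded mRNA libraries: alignment to GRCm38.p3 with TopHat2 2.1.1 and counting of primary alignments on exons of the reverse strand with featureCounts (1.5.0-p1 in the file headers, Subread 1.5.2 in the submitters' processing notes). Total counts per sample were 16482530 to 45791503. Groups and mouse numbers came from the sample labels, and mice 1 to 8 are numbered here in the order of the labels.

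Counts were tested with edgeR 4.0.16 (R 4.3.3): filterByExpr, TMM, glmQLFit and glmQLFTest, no mouse term, adjusted p under 0.01. SEs came from the log2 fold change and F statistic, and 95% intervals from the SE with 14 degrees of freedom. Alternatives were the mouse as a block, DESeq2 1.42.0, limma-voom (limma 3.58.1), RLE factors, other filters, each mouse left out, and mice 1 to 3 or 5 to 8 only. The scripts were tested on simulated data: edgeR recovered 198 of 200 changed genes, with 2 false calls among 15727 genes. Only well counted genes were changed there, by more than the change fitted for *Avil* or *Dclk1*, and far fewer genes changed than here. The recovery therefore does not carry over to changes smaller than those simulated or to genes with few counts, such as *Gfi1b*. Tuft genes, gene lists and tests were chosen with earlier results of these data known. The text names all members, the lowest and highest 3 tested genes of the other tuft lists (all where 6 or fewer were tested), examples of the remaining lists, and the 10 genes with the highest r. *Ptprc*, *Cd3e*, *Cpa3*, *S100a8*, *Csf1r*, *Tpsb2* and *Pf4* were chosen after their values were seen. Samples of a mouse deviated together over all genes (correlation 0.22 to 0.41 within mice, at most 0.17 between mice), and both come from the same animal, so the numbers pair the samples. No 2 libraries of a group agreed within sampling noise. The small intestinal libraries and those of mutant mice were not analysed here.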

Additional observations from a re-analysis of the deposited data

Results flagged for a closer look

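Of 22 sets of 8 samples checked for a sample far from the others, 4 had one. Chance gives about 1 in 20 for a single set. All 4 were the tdTom- library of mouse 4, so they are not separate events and their number cannot be set against that rate. *Dclk1* stood at 4.87 log2 CPM there, against 5.39 to 5.74 in the other tdTom- samples. *Trpm5* stood at 4.77, against 5.13 to 5.41, and *Avil* at 3.78, against 4.21 to 4.54. The library held 45791503 total counts, against 18318172 to 20668605 in the other tdTom- libraries. Without mouse 4 the log2 fold change was -0.68 for *Dclk1*, -0.99 for *Trpm5* and -0.50 for *Avil*, compared with -0.57, -0.93 and -0.42 with it. Whether the depth of this library has a part in its low tuft gene levels was not tested.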

How the results depend on the processing

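The 9 tested genes gave 143 alternative fits, of which 134 kept direction and side of the threshold. The count of members that fell was 5 to 8 and that of members that rose 0 over all alternatives; without 1 mouse it was 7 to 8. With the mouse as a replicate block it was 8, through *Avil* (-0.43, adjusted p = 0.0031), which also passed with DESeq2 (adjusted p = 0.0061) and without mouse 4 or mouse 6; the block changed no other member's call. *Pou2f3* changed sign without mouse 1 (-0.019) and without mouse 4 (-0.069), its values without 1 mouse running from -0.069 to 0.172, and within mice 5 to 8 (-0.32). Within mice 1 to 3, *Gfi1b* (adjusted p = 0.0481) and *Alox5ap* (adjusted p = 0.0294) no longer passed, and over all genes 2559 fell and 2546 rose, against 4042 and 4032 with all mice, with fewer samples. The order of *Il17rb* and *Gfi1b* turned with a prior count of 0.5 (-0.028). No scaling moved the median of all genes by over 0.1. Depth limits *Il25*, with 0 to 7 counts per sample, and *Gfi1b* in tdTom+ cells.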

Other observations

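Over the 8 tdTom+ samples, examined after the tdTom- samples had been seen, other genes followed the 9 tested tuft genes. The 10 closest of 15832 were *Klb* (Pearson r = 0.97, a co-receptor of fibroblast growth factor receptors), *Cldnd1*, Gm16174, *Tmem183a*, *Csnk2b*, *Marcksl1*, *Glrx*, *Syt5*, *Sh2d7* and *Cdc34b* (r = 0.94). *Sh2d7*, an SH2-domain adaptor gene, was on the list of signaling genes associated with tuft cells and fell by 0.76 on the log2 scale in tdTom+ cells. There were 32 genes with r over 0.9, compared with 124 in tdTom- samples, and none of the 10 was among the 10 of the tdTom- samples. In tdTom+ samples *Pou2f3* followed the other members with r = 0.92 (0.87 without the 2 samples farthest from the median), compared with 0.72 (0.053) in tdTom- samples. Without those 2 samples, r of the other members in tdTom+ samples went both ways. It fell most for *Alox5ap* (0.55 to 0.012), *Ptgs1* (0.80 to 0.20) and *Gfi1b* (0.44 to 0.078). For *Il17rb* it rose from 0.54 to 0.80, for *Sh2d6* from 0.57 to 0.69 and for *Avil* from 0.83 to 0.85. These correlations describe 8 libraries each.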
